A study of Mus musculus with 6 samples.

Results

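The 10 genes described here are *Txnip*, its alpha-arrestin relatives *Arrdc1*, *Arrdc2*, *Arrdc3* and *Arrdc4*, the glucose-sensing transcription factors *Mlxip* (MondoA) and *Mlxipl* (ChREBP) with their partner *Mlx*, thioredoxin (*Txn1*) and cytosolic thioredoxin reductase (*Txnrd1*). They were taken by gene symbol from the 54532 genes of the count table, where each symbol matched a single gene. *Txnip* was selected on its change in this very comparison, so its values are given as a description without a test. The other 9 genes were taken as its family or pathway partners with earlier results of these data known.

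The libraries came from MLE12 cells, an established mouse lung epithelial line labelled C57BL/6J, which was derived from a lung tumour driven by a viral large T antigen under the surfactant protein C promoter. Control cells (Ctrl shRNA, n = 3) received an empty control lentivirus at a multiplicity of infection of 50. Knockdown cells (*Idh3a* shRNA + *Slc25a1* shRNA, n = 3) received 2 lentiviruses together, against *Idh3a*, a subunit of mitochondrial isocitrate dehydrogenase, and *Slc25a1*, the mitochondrial citrate carrier, each at a multiplicity of 50. Both groups grew in medium that contained hydrocortisone and insulin, were washed after 16 h and were then cultured for a further 80 h. Whether the total viral load was matched between the groups is not stated, so load and knockdown cannot be told apart. The labels do not say whether replicates were separate cultures, so p-values measure only the spread between these libraries.

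Counts per gene summed to between 27273502 and 28535653 per library. Ctrl shRNA replicate 2 stood apart. Its TMM scaling factor, a correction for library composition, was 0.711, while the other 5 lay between 1.05 and 1.09. Transcripts of the mitochondrial genome made up 6.49% of its counts (1.57% to 1.8% elsewhere), and 27.2% of its counts fell on the top 100 genes (12.5% to 12.9% elsewhere). The log2 fold changes and calls of the 10 genes are therefore given with and without that library. Both targeted genes were lower in the knockdown libraries. *Slc25a1* was at 103, 98.7 and 108 CPM (read counts brought to a common library size with TMM factors) in control cells and at 68.9, 69.6 and 63 CPM in knockdown cells. *Idh3a* was at 79.8, 137 and 93 CPM against 58.5, 57.9 and 55.5 CPM, with the highest control value in replicate 2. In edgeR their adjusted p values were 0.104 and 0.254 with all libraries and 0.00649 and 0.0142 without Ctrl shRNA replicate 2. The alveolar type 2 identity of the line was partial, since *Nkx2-1*, *Abca3* and *Sftpc* were detected in every library while *Sftpd* was at 0 counts in all 6. The summed level of the 10 type 2 markers was 547 to 559 CPM in control cells and 480 to 512 CPM in knockdown cells, and its part in the results below was not tested. Most of that sum came from *Nkx2-1* (324 to 343 CPM in control cells, 277 to 302 CPM in knockdown cells) and *Abca3* (110 to 141 and 132 to 134 CPM). Without Ctrl shRNA replicate 2, *Sftpc* fell (log2 fold change -0.65, adjusted p = 0.0438, edgeR) and *Etv5* rose (0.57, adjusted p = 0.0312), while with all libraries 0 of the 6 that could be tested passed in edgeR. DESeq2 on all 6 libraries called *Etv5* (adjusted p = 0.00117), and limma voom with sample quality weights called *Etv5* (0.00269) and *Napsa* (0.0221) higher and *Sftpc* (0.0184) and *Nkx2-1* (0.0294) lower. *Sftpc* was at 44.1, 97.3 and 50.9 CPM in control cells and at 35.9, 28.5 and 27.2 CPM in knockdown cells. Of 8 markers of blood, endothelial and fibroblast cells, *Ptprc* and *Adgre1* were at 0 in all 6 libraries, and the summed levels of the list overlapped between the groups (24.5 to 27.3 CPM and 23 to 29.6 CPM). *Col1a1* made up most of that sum. *Pdgfra* (2.23 to 2.68 CPM in control cells, 3.43 to 3.91 CPM in knockdown cells) and *Cd68* (1.65 to 1.92 and 2.34 to 2.73 CPM) were low but higher in every knockdown library, with adjusted p values of 0.312 and 0.352 in edgeR, and *Pdgfra* was called by limma voom with sample quality weights (adjusted p = 0.0312). Their part in the results was not tested. In bulk RNA, fewer cells carrying a transcript and less of it per cell cannot be told apart.

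TXNIP binds reduced thioredoxin and also acts as an alpha-arrestin adaptor that promotes internalisation of glucose transporters. Its gene is a classic target of MondoA and ChREBP, which bind DNA as heterodimers with MLX when phosphorylated sugars accumulate in the cell. *Arrdc4*, the closest relative of *Txnip*, is a target of the same factors. The remaining alpha-arrestins recruit NEDD4-family ubiquitin ligases to membrane proteins, and thioredoxin reductase uses NADPH to regenerate the thioredoxin that TXNIP binds.

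The *Txnip* and *Arrdc4* promoters are shown because MLX heterodimers bind DNA elements built from CACGNG units, and because *Arrdc4* had the change closest to that of *Txnip* among the other alpha-arrestins. Each line gives the 250 bases before the annotated start, 5′ to 3′ on the gene's strand (RefSeq, GRCm38.p6), with capitals marking paired CACGNG elements, CACGTG E-boxes and CCAAT boxes found on either strand.
*Txnip* (chr3:96557707-96557956, plus strand): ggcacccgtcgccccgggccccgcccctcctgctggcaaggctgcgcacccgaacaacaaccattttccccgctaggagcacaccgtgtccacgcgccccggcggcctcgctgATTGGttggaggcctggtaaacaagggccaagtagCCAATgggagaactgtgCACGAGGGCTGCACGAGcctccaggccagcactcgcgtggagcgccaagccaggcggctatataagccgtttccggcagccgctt
*Arrdc4* (chr7:68749239-68749488, minus strand): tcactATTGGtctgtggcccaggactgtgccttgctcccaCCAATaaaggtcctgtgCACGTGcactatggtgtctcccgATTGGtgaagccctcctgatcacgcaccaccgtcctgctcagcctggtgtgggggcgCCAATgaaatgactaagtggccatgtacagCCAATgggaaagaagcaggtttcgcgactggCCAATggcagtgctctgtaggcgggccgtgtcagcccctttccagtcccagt

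The *Txnip* window held a paired element, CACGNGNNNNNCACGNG, with the letters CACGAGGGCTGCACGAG at positions -85 to -69 from the start (chr3:96557872-96557888). This pattern was found in 16 of 32851 promoter windows of 300 bases in the RefSeq table (0.0487%), in no other member and in 0 of the 80 pathway genes with a window. The search took only units in the same orientation at this spacing. Units in opposite orientations or at other spacings were not searched, so the counts do not cover every paired element. The *Txnip* window also held 2 CCAAT boxes and the FOXO letters GTAAACA, which 3.65% of all windows contained, and none of these matches overlapped. The *Arrdc4* window held no match to this pattern, but a single CACGTG E-box at positions -193 to -188 from the start and 6 CCAAT boxes. The 10 genes had 15 windows, since *Arrdc3*, *Txnrd1* and *Mlxipl* had several. E-boxes were present in 7.15% of all windows and in 3 of the 15, those of *Arrdc4*, *Mlxipl* and *Mlx*. CCAAT boxes were present in 37.4% of all windows and in 9 of the 15, from 8 of the 10 genes. The core of the antioxidant response element, TGACNNNGC, was present in 12.4% of all windows and in 3 of the 15, those of *Arrdc4*, *Mlx* and *Txnrd1*, and in *Mlx* it overlapped the E-box by 2 bases. These matches describe letters in the windows and not occupied sites.

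*Txnip* was less abundant in every knockdown library than in any control library. Its levels were 167, 166 and 164 CPM in control cells and 72.2, 78.4 and 71.7 CPM in knockdown cells. The group means were 166 ± 1.67 and 74.1 ± 3.73 CPM (SD, n = 3 each), which is 55.3% lower in knockdown cells. The log2 fold change was -1.16 with all libraries and -1.17 without Ctrl shRNA replicate 2, and Ctrl shRNA replicate 2 was level with the other controls for this gene. *Txnip* lies on chr3:96557957-96561883 of mm10 on the plus strand. The antisense gene *Gm15441* spans its 3927 bases and was assigned a mean of 3.83 raw counts per library, where 3300 were assigned to *Txnip*.

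*Arrdc4* (chr7:68736995-68749241, minus strand) had the log2 fold change nearest to that of *Txnip* among the alpha-arrestins. It was at 12.5, 7.64 and 13.3 CPM in control cells and at 5.01, 6.39 and 5.29 CPM in knockdown cells. The groups did not overlap, and Ctrl shRNA replicate 2 was the lowest control, at 0.591 times the mean of the other controls. The log2 fold change of -1.01 (95% interval -1.59 to -0.42) did not pass the test with all libraries (adjusted p = 0.256, edgeR quasi-likelihood test, Benjamini-Hochberg over all genes tested). Without Ctrl shRNA replicate 2 *Arrdc4* fell, with a log2 fold change of -1.22 (-1.54 to -0.91) and an adjusted p of 0.00721 in edgeR. Relative to *Txnip*, its level per length overlapped between the groups: the *Txnip* to *Arrdc4* ratio was 17.2, 28.1 and 15.9 in control cells and 18.7, 15.9 and 17.5 in knockdown cells.

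*Arrdc3* (chr13:80883384-80896042, plus strand), an adaptor in the ubiquitination of beta-adrenergic receptors and integrins, was also lower. It was at 35.8, 40.3 and 32 CPM in control cells and at 24.4, 24.7 and 23.3 CPM in knockdown cells, which is 33.1% lower on average, with no overlap. For *Arrdc3* the log2 fold change was -0.58 (-0.83 to -0.32) with an adjusted p of 0.179 in edgeR over all libraries. Without Ctrl shRNA replicate 2 it was -0.50 (-0.70 to -0.30) and passed the test (adjusted p = 0.0313, edgeR), so the call was gained although the change was smaller.

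*Arrdc1* (chr2:24925352-24935252, minus strand), which takes part in the budding of vesicles from the plasma membrane, was at 37.1, 36.4 and 37.2 CPM in control cells and at 29.4, 34.3 and 29.9 CPM in knockdown cells. The values did not overlap, but the log2 fold change of -0.24 (-0.46 to -0.03) did not pass the edgeR test (adjusted p = 0.346, or 0.174 without Ctrl shRNA replicate 2). limma voom with sample quality weights called it lower (adjusted p = 0.0305). *Arrdc2* (chr8:70835129-70839720, minus strand) was at 21.6, 19 and 19.9 CPM against 21.3, 22.1 and 20.2 CPM, and its groups overlapped. Its log2 fold change of 0.07 had an interval from -0.16 to 0.30 (0.02 without Ctrl shRNA replicate 2), which does not reach the change of *Txnip* or *Arrdc4* in either direction. Over the 4 alpha-arrestins other than *Txnip*, 3 log2 fold changes were negative and 1 was positive, with a median of -0.41 (-0.38 without Ctrl shRNA replicate 2) beside -0.01 (-0.02) over all genes tested.

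**Figure D1:**
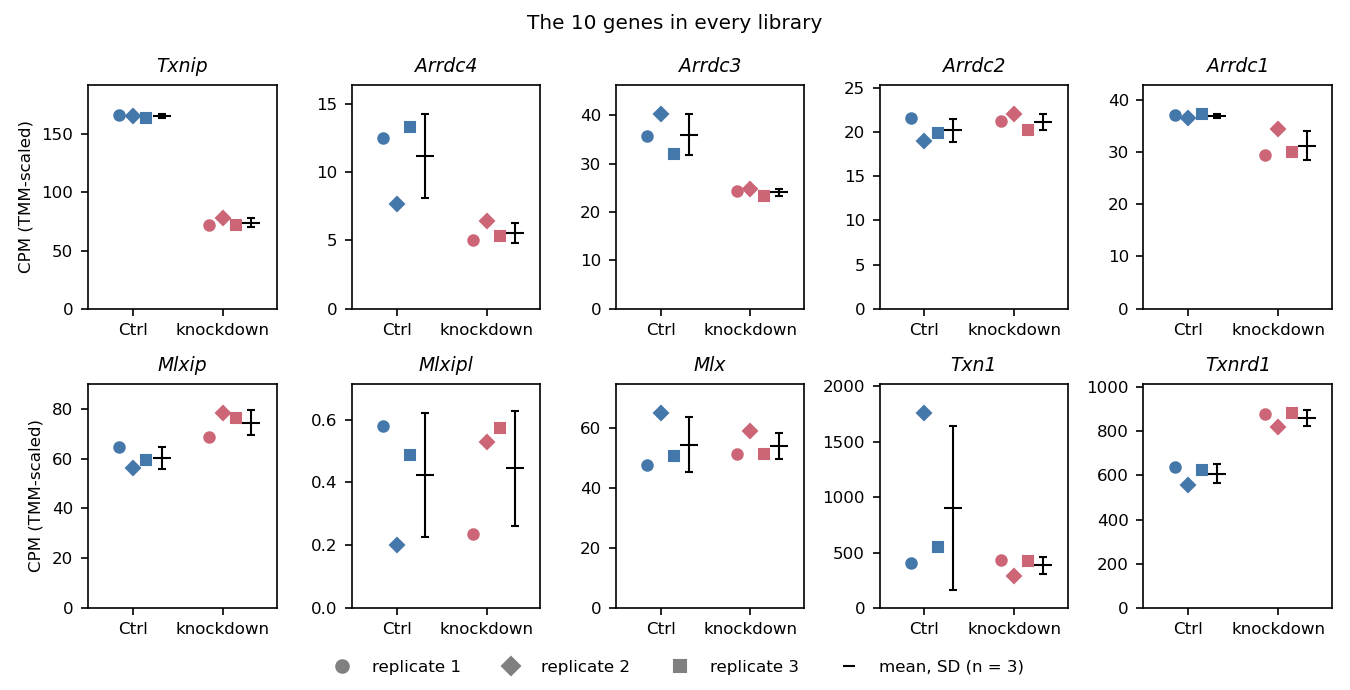
CPM scaled with TMM factors (vertical axes, each starting at 0) of the 10 genes in the 3 Ctrl shRNA libraries and the 3 *Idh3a* shRNA + *Slc25a1* shRNA (knockdown) libraries, with replicate numbers as marker shapes and the mean and SD as black bars. *Txnip* fell into separate ranges, 164 to 167 CPM in control cells and 71.7 to 78.4 CPM in knockdown cells, and the *Txn1* panel shows Ctrl shRNA replicate 2 at 1760 CPM, far above the other 5 libraries.

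The transcription factors that act on *Txnip* did not pass the edgeR test in either direction, with or without Ctrl shRNA replicate 2. *Mlxip* (chr5:123394798-123457932, plus strand), which encodes MondoA, was at 64.9, 56.3 and 59.5 CPM in control cells and at 68.8, 78.4 and 76.5 CPM in knockdown cells. Every knockdown value was above every control value, with group means 23.7% apart, in the opposite direction to *Txnip*. For *Mlxip* the log2 fold change was 0.31 (0.09 to 0.52), with an adjusted p of 0.315 in edgeR (0.163 without Ctrl shRNA replicate 2), whereas limma voom with sample quality weights called it higher (adjusted p = 0.0371). *Mlx* (chr11:101087277-101092207, plus strand), the shared partner, was at 47.6, 64.9 and 50.7 CPM against 51.3, 58.8 and 51.3 CPM. Its groups overlapped only through Ctrl shRNA replicate 2, and its log2 fold change was -0.01 (-0.35 to 0.32) with all libraries and 0.12 (-0.07 to 0.32) without Ctrl shRNA replicate 2. *Psmc3ip* overlaps *Mlx* by 385 bases on the opposite strand and was assigned a mean of 756 raw counts, where 1510 were assigned to *Mlx*. Whether reads in the overlap were assigned by strand is not given in the sources used here. *Mlxipl* (chr5:135089890-135138382, plus strand), which encodes the ChREBP of liver and adipose tissue, was barely detected. Its raw counts were 18, 4 and 14 in control cells and 7, 16 and 17 in knockdown cells. Its interval, from -1.33 to 1.41 on the log2 scale, shows that a change of the size seen for *Txnip* was not detectable at this depth.

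Thioredoxin and its reductase were the most abundant of the 10 genes and behaved differently. *Txnrd1* (chr10:82833951-82897712, plus strand) was at 637, 556 and 626 CPM in control cells and at 876, 818 and 882 CPM in knockdown cells. The groups did not overlap and the mean was 41.6% higher in knockdown cells. The log2 fold change was 0.50 (0.25 to 0.75) with an adjusted p of 0.227 in edgeR over all libraries, and without Ctrl shRNA replicate 2 *Txnrd1* rose by 0.43 (0.28 to 0.59) with an adjusted p of 0.0211. *Eid3* lies within *Txnrd1* on the same strand, and was assigned a mean of 131 raw counts, where 21000 were assigned to *Txnrd1*.

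*Txn1* (chr4:57943373-57956411, minus strand) was at 402, 1760 and 549 CPM in control cells and at 431, 291 and 426 CPM in knockdown cells. The value in Ctrl shRNA replicate 2 was 3.69 times the mean of the other controls. In *Txn1* the log2 fold change moved from -1.24 (-2.61 to 0.13) with all libraries to -0.32 (-0.73 to 0.08) without that library, and neither passed the test (adjusted p = 0.361 and 0.35, edgeR). The ratio of *Txnrd1* to *Txn1* per length was 0.235, 0.047 and 0.169 in control cells and 0.301, 0.416 and 0.307 in knockdown cells, higher in every knockdown library with or without Ctrl shRNA replicate 2. The ratio of *Txnip* to *Txn1* was 0.14, 0.0318 and 0.1 against 0.0563, 0.0905 and 0.0567, and overlapped only through Ctrl shRNA replicate 2.

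**Figure D2:**
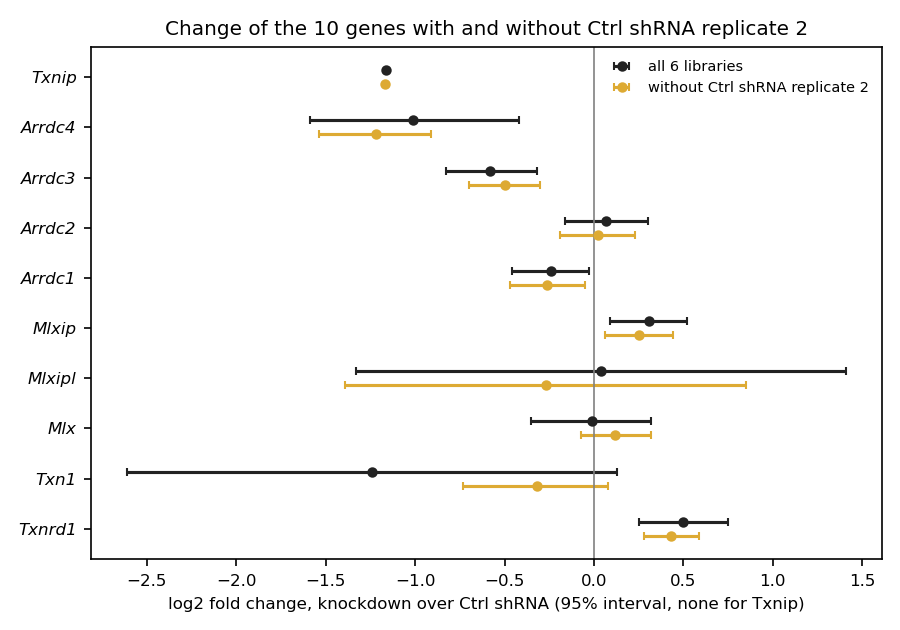
Log2 fold change of knockdown over Ctrl shRNA (horizontal axis, points) with its 95% interval (bars, none for *Txnip*, which was selected on this change) for the 10 genes, from the edgeR fit of all 6 libraries and from the fit without Ctrl shRNA replicate 2. The *Txnip* estimates coincide at -1.16 and -1.17, while *Txn1* moves from -1.24 to -0.32.

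Of the 9 genes other than *Txnip*, 0 were called lower and 0 higher by edgeR with all libraries, against a background of 0.00653% of all 15307 genes tested called lower and 0.0588% called higher. That lower background is 1 gene, *Txnip* itself, which was selected on this change, so it gives no independent rate. At an unadjusted p under 0.05 in the same fit, 3 were lower (background 6.65%) and 2 higher (background 7.47%). Without Ctrl shRNA replicate 2, edgeR called 2 lower, *Arrdc4* and *Arrdc3* (background 0.675% of 15709 genes), and 1 higher, *Txnrd1* (background 1.11%). DESeq2 on all 6 libraries called the same 3 genes, 2 lower (background 0.726%) and 1 higher (background 1.32%), with adjusted p values of 0.0264 for *Arrdc4*, 0.00433 for *Arrdc3* and 0.00216 for *Txnrd1*. By value alone, the groups did not overlap for 3 of the 9 genes that were lower, *Arrdc4*, *Arrdc3* and *Arrdc1* (background 10.7%), and for 2 that were higher, *Mlxip* and *Txnrd1* (background 14.7%).

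Levels of the 10 genes were ranked per length, as CPM per kilobase of the gene length in the table. *Txn1* ranked highest in every library, at 859 ± 708 CPM per kilobase in control cells and 364 ± 75.4 in knockdown cells (SD, n = 3 each). Its control mean rested on Ctrl shRNA replicate 2, at 1672 CPM per kilobase, and was 453 without it. Next was *Txnrd1* at 85.6 ± 6.18 and 121 ± 5.02. *Txnip* ranked 3 in every control library at 53 ± 0.536 CPM per kilobase and 4 in every knockdown library at 23.7 ± 1.19, behind *Mlx* at 27.2 ± 4.63 and 26.9 ± 2.18. *Arrdc1* and *Mlxip* took ranks 5 and 6 in all 6 libraries. *Arrdc2* and *Arrdc3* were neighbours in the control libraries, at 6.25 ± 0.417 and 5.75 ± 0.662 CPM per kilobase, and exchanged ranks in Ctrl shRNA replicate 2. In the other control libraries *Arrdc2* was higher, with means of 6.43 and 5.41 CPM per kilobase. *Arrdc4* ranked 9 and *Mlxipl* 10 in every library, with control means of 2.76 and 0.0766 CPM per kilobase.

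Within the alpha-arrestins, *Txnip* made up 64.3% ± 0.579 of the summed level per length in control cells and 49.5% ± 0.353 in knockdown cells (SD, n = 3 each). The share of *Arrdc1* was 17.8% ± 0.255 in control cells and 25.9% ± 0.806 in knockdown cells, and that of *Arrdc2* was 7.57% ± 0.414 and 13.7% ± 0.422. *Arrdc3* made up 6.97% ± 0.814 and 8.03% ± 0.329, and *Arrdc4* 3.35% ± 0.914 and 2.87% ± 0.218. These shares add up to the whole in each library, so they are not independent of each other. *Txnip* remained the most abundant alpha-arrestin in all 6 libraries.

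**Figure D3:**
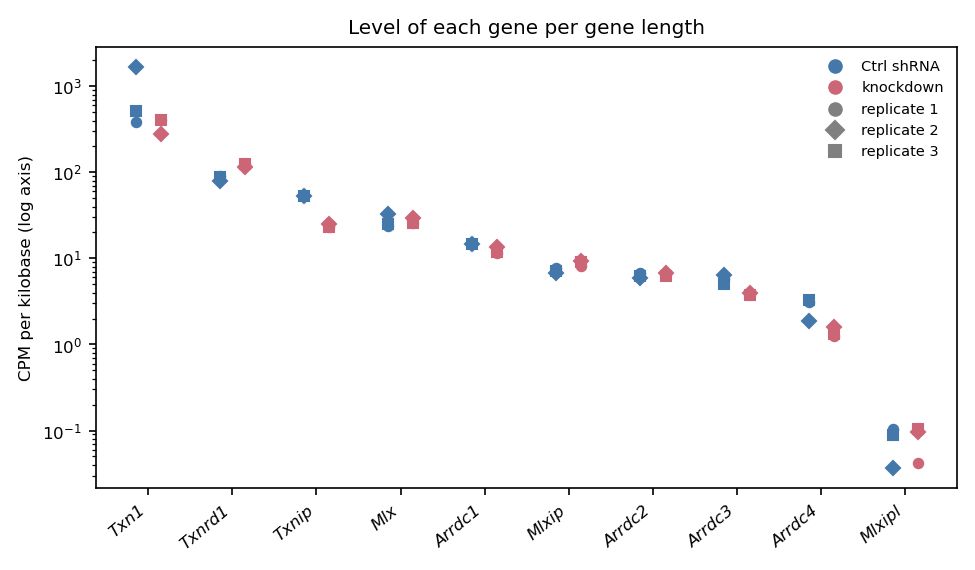
CPM per kilobase of gene length (vertical log axis) of the 10 genes in each library, ordered by their control level, with groups as colours and replicate numbers as marker shapes. *Txnip* lies above *Mlx* in the control libraries (53 against 27.2 on average) and below it in the knockdown libraries (23.7 against 26.9).

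The genes with profiles most like that of *Txnip* were found by the root mean square difference between log2 CPM profiles, each centred on its own mean over the 6 libraries, among the 15306 other genes tested. The closest were *Gm9922* (0.109 log2 units), *Cadm2*, a cell adhesion molecule (0.116), *Vldlr*, the very-low-density lipoprotein receptor (0.126), *Chac1*, a glutathione-degrading enzyme of the integrated stress response (0.170), and *Egr1*, an immediate early transcription factor (0.182). *Vldlr* was at 37.1, 33.8 and 41.1 CPM in control cells and at 16.9, 17.7 and 19.1 CPM in knockdown cells. *Egr1* was at 193, 164 and 166 CPM against 61, 85.9 and 58.6 CPM. *Gm9922* and *Cadm2* were low, at no more than 1.43 and 0.523 CPM in any library. These genes were selected on the values described, so no test is given. Among the 9 partners, *Arrdc4* ranked 46 and *Arrdc3* 87 by this measure with all libraries, *Arrdc1* ranked 1020, and the other 6 ranked 5589 or beyond. Without Ctrl shRNA replicate 2 the 5 nearest genes were *Gm44366*, *Gm28941*, *Arrdc4*, *Fos* and *Pkd1l2*, of which 0 were among the 5 found with all libraries. *Gm44366* and *Gm28941* were also low, at no more than 1.87 and 1.91 CPM in any library. In that ranking *Arrdc4* was at 3 with a difference of 0.086, *Arrdc3* at 257 and *Arrdc1* at 1361. *Txn1* moved to 3107 from 10032 with all libraries, and the remaining partners ranked 5929 or beyond.

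The surrounding pathways were described with 8 lists of 103 genes written from general knowledge, of which 84 were tested with all libraries and 86 without Ctrl shRNA replicate 2. edgeR with all libraries called 0 of them in either direction, against the backgrounds of 0.0588% higher and 0.00653% lower, and DESeq2 with all libraries called 7 higher and 1 lower (backgrounds 1.32% and 0.726%). Without Ctrl shRNA replicate 2, edgeR called 6 higher and 2 lower (backgrounds 1.11% and 0.675%), and these shares of all genes are the background to the calls of each list in that fit. At an unadjusted p under 0.05 with all libraries, the background was 7.47% higher and 6.65% lower.

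Among 21 target genes of MondoA and ChREBP other than the alpha-arrestins, 14 were tested, and 11 of their log2 fold changes were positive with all libraries (78.6%, beside 48.7% of all genes tested). Those 11 include *Klf10*, *Khk* and *Tkfc*, at only 0.00, 0.05 and 0.05. The 3 negative values were those of *Acacb* (-0.48), *Gpd1* (-0.23) and *Hbp1* (-0.27). The share of positive values with all libraries was 77.8% in the glucose transporter and hexokinase list and 71.4% in the AMPK list. It was 31.6% in the thioredoxin and glutaredoxin list, and between 42.9% and 55.6% in the other 4. These shares rest in part on Ctrl shRNA replicate 2 and were not counted without it. Leaving it out moved the median of the thioredoxin and glutaredoxin list from -0.40 to -0.04, and that of the glucocorticoid-induced genes from 0.05 to -0.10. *Fasn*, fatty acid synthase, and *Elovl6*, a fatty acid elongase, rose without Ctrl shRNA replicate 2 (log2 fold changes 0.49 and 0.47, adjusted p = 0.0488 and 0.016, edgeR), and 0 fell. *Fasn* was at 671, 578 and 591 CPM in control cells and at 845, 991 and 837 CPM in knockdown cells. *Elovl6* was at 59.1, 46 and 59.9 CPM against 83, 80.5 and 85.7 CPM. DESeq2 on all 6 libraries also called both (adjusted p = 0.0108 and 0.0183). With all libraries, 4 of 14 genes of the list were higher and 0 lower at an unadjusted p under 0.05 (background 7.47% and 6.65%). The median log2 fold change of the list was 0.16 with all libraries and 0.12 without Ctrl shRNA replicate 2. *Pklr*, pyruvate kinase of liver and red cells and a much used ChREBP target, was not tested because its counts were too low.

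The glucose transporters and hexokinases held the largest increases among the called genes of the lists. Of 18 genes, 10 were tested without Ctrl shRNA replicate 2, where 2 rose and 0 fell (background 1.11% and 0.675%). *Slc2a1*, the basal glucose transporter GLUT1 and an internalisation cargo of TXNIP, was at 16.3, 15.3 and 12.4 CPM in control cells and at 27.7, 24.9 and 26.2 CPM in knockdown cells (log2 fold change 0.86, adjusted p = 0.018, edgeR without Ctrl shRNA replicate 2). *Hk2*, the inducible hexokinase, was at 6.46, 6.28 and 6.17 CPM against 12.1, 10.3 and 13.5 CPM (0.92, adjusted p = 0.0229, same fit). The values of both genes in Ctrl shRNA replicate 2 lay close to the other controls, and neither passed edgeR with all libraries (adjusted p = 0.144 for each). DESeq2 on all 6 libraries called both (adjusted p = 9.74e-05 for each), as did limma voom with sample quality weights (0.00172 for *Slc2a1* and 0.00468 for *Hk2*). With all libraries, 3 of 9 genes of the list were higher and 0 lower at an unadjusted p under 0.05 (background 7.47% and 6.65%). The median of the list was 0.39 with all libraries and 0.23 without Ctrl shRNA replicate 2.

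Among the MYC, MAX and MXD factors, which share the MAX and MLX network with MondoA, 10 of 10 genes were tested without Ctrl shRNA replicate 2. *Myc* rose (log2 fold change 0.64, adjusted p = 0.0211, edgeR), from 66.4, 62.4 and 65.8 CPM to 99.7, 117 and 93.5 CPM. *Mxd4*, a repressor that can pair with MLX, fell (-0.47, adjusted p = 0.0274), as did *Mxd3* (-0.47, adjusted p = 0.0492). DESeq2 on all 6 libraries called *Myc* (adjusted p = 4.16e-04) and *Mxd3* (0.0475) but not *Mxd4* (0.255). *Mxd4* was at 206, 172 and 233 CPM in control cells and at 163, 151 and 165 CPM in knockdown cells. At an unadjusted p under 0.05 with all libraries, 2 of 9 genes were higher and 2 lower (background 7.47% and 6.65%). The median of the list was 0.06 with all libraries and -0.06 without Ctrl shRNA replicate 2.

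All 19 thioredoxin and glutaredoxin genes were tested. *Srxn1*, sulfiredoxin, which restores overoxidised peroxiredoxins, rose without Ctrl shRNA replicate 2 (log2 fold change 0.42, adjusted p = 0.038, edgeR), from 107, 93.8 and 98.5 CPM to 146, 140 and 129 CPM. At an unadjusted p under 0.05 with all libraries, 3 of 19 genes were higher and 0 lower (background 7.47% and 6.65%). The list's median was -0.40 with all libraries and -0.04 without Ctrl shRNA replicate 2. *Prdx1*, a peroxiredoxin chosen after its values were seen, was at 4770 CPM in that library and at 759 and 1100 CPM in the other controls, much as *Txn1* was. *Txnrd3*, also chosen after its values were seen, was higher in every knockdown library and was called by DESeq2 with all libraries (adjusted p = 0.0325) but not by edgeR without Ctrl shRNA replicate 2 (adjusted p = 0.0754). *Prdx4* and *Prdx5*, chosen in the same way, were lower in every knockdown library. *Prdx4* was called by DESeq2 without Ctrl shRNA replicate 2 (adjusted p = 0.0145) but not with all libraries (0.178). *Prdx5* was called by limma voom with sample quality weights (adjusted p = 0.034).

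In the remaining lists, edgeR called 0 genes in either direction with or without Ctrl shRNA replicate 2, and DESeq2 with all libraries also called 0. These were 8 tested NEDD4-family ubiquitin ligases, 7 other arrestin-fold genes, 7 AMPK subunits and 11 glucocorticoid-induced genes, the last of interest because the medium held hydrocortisone. At an unadjusted p under 0.05 the glucocorticoid-induced genes held 1 higher and 1 lower gene and the other 3 lists held 0 (background 7.47% and 6.65%). Other tools called some of them: *Dusp1*, a glucocorticoid-induced phosphatase, was lower under DESeq2 without Ctrl shRNA replicate 2 (adjusted p = 0.00803) and under voom with sample quality weights (0.00844), and voom also called *Fkbp5* (0.0393), *Nedd4l* (0.0469) and *Smurf1* (0.0394) higher. These 4 genes were chosen after their values were seen. Their medians without Ctrl shRNA replicate 2 were 0.04, -0.01, 0.05 and -0.10 in the same order.

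**Figure D4:**
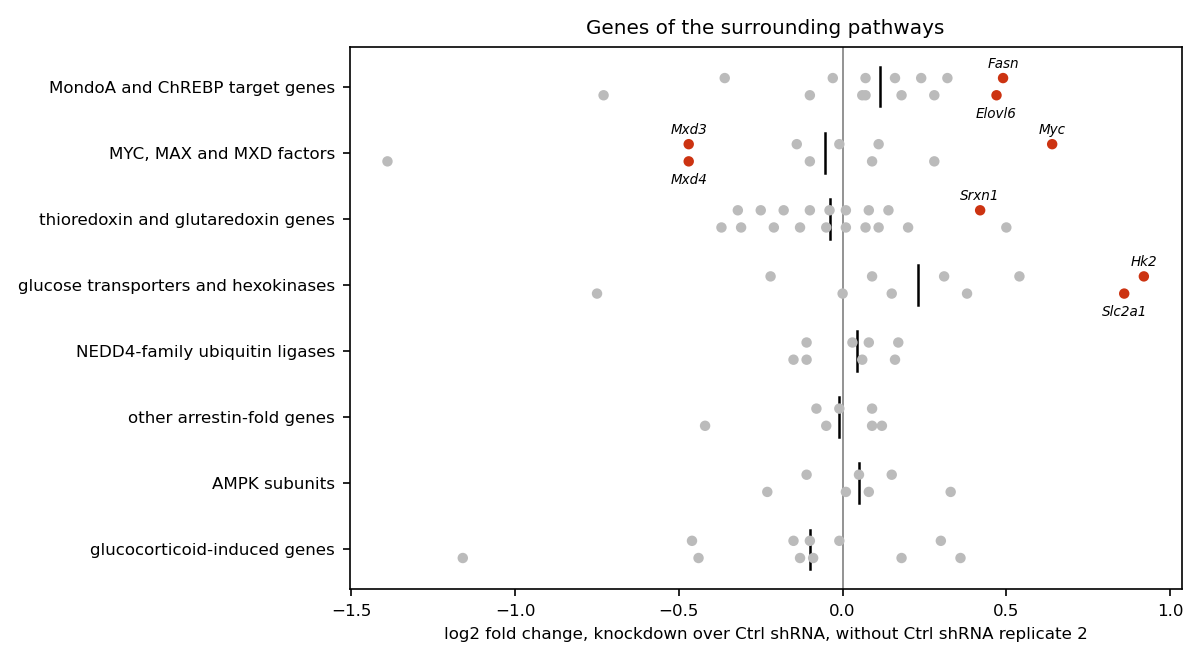
Log2 fold change of knockdown over Ctrl shRNA without Ctrl shRNA replicate 2 (horizontal axis) for each tested gene of the 8 lists (rows, with points offset vertically for legibility), with genes at an adjusted p under 0.05 in red and named, the others in grey, and the list median as a black bar. *Hk2* (0.92) and *Slc2a1* (0.86) lie farthest to the right, and *Mxd3* and *Mxd4* (-0.47 each) are the 2 named genes on the left.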

How the data were processed

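RNA from 6 MLE12 libraries was sequenced as paired ends after a library kit that is not named as strand-marking. Per the labels, the submitters' processing notes name HISAT2 2.0.5, StringTie 1.3.3b, featureCounts 1.5.0-p3 and the mm10 build, and the extraction protocol names an assembly with Trinity; their roles and the use of strand are not given in the sources used here. The deposited raw counts per gene (54532 genes, none pooled) were used as they are, and the deposited FPKM values, which the authors had scaled by library size and gene length, served only for alternatives. Groups and replicate numbers came from the sample titles. The deposited table held no other per-sample columns.

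The counts were analysed in R 4.3.3 with edgeR 4.0.16 (filterByExpr, TMM, quasi-likelihood test, Benjamini-Hochberg over the 15307 genes tested, threshold 0.05), tested on simulated data first. CPM used TMM-scaled library sizes, and rankings of likeness used log2 CPM with a prior count of 2. A fit without Ctrl shRNA replicate 2 was made in the same way (15709 genes). DESeq2 1.42.0 and limma 3.58.1, on log2(FPKM + 1), log2(FPKM + 0.1) and voom values with sample quality weights, were alternatives, as were other size factors, filters, a replicate block and leaving out each library. Libraries of a group differed by more than sampling noise. All 10 gene positions matched GENCODE M21. Promoter windows came from RefSeq GRCm38.p6, 250 bases before to 50 after each start.

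The members and the pathway lists were chosen with earlier results of these data known. The text names the 10 genes, the 2 targeted genes and genes that overlap a member. It names genes of a pathway list called with or without Ctrl shRNA replicate 2 (at most 4 per list and direction). It also names the 5 genes nearest to *Txnip* over 6 libraries and, added later, over 5. Cell type markers and further genes, chosen after their values were seen or to say that they were not tested, are named besides. Pathway lists got counts and medians and no set test.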

Additional observations from a re-analysis of the deposited data

How the results depend on the processing

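The *Txnip* log2 fold change stayed between -1.20 and -0.99 over 16 alternatives, and *Arrdc4*, *Arrdc3*, *Arrdc1* and *Txn1* stayed negative and *Arrdc2*, *Mlxip* and *Txnrd1* positive in all 16. The number of the 9 other genes called lower was 2 under DESeq2, 3 under voom with sample quality weights and 2 under DESeq2 without Ctrl shRNA replicate 2, an alternative chosen after seeing the data, and 0 to 2 when 1 library was left out. The number called higher was 1, 2, 1 and 0 to 1 in the same order. Of the pathway list genes, 1, 6, 4 and 0 to 2 were lower and 7, 17, 12 and 0 to 6 were higher. Calls without a library came only from leaving out Ctrl shRNA replicate 2, where *Arrdc4*, *Arrdc3* and *Txnrd1* were called. Over all genes, edgeR called 9 higher and 1 lower with all libraries, 175 and 106 without Ctrl shRNA replicate 2, DESeq2 202 and 111 (454 and 288 without that library), and voom 1327 and 971. The cause of these differences was not tested.

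The log2 fold change of *Mlxipl*, 0.04 with all libraries, was -0.43 under voom, -0.27 without Ctrl shRNA replicate 2 in edgeR and in DESeq2, and -0.09 and -0.17 without knockdown replicates 2 and 3 (range -0.27 to 0.35 over the 6 libraries left out in turn). That of *Mlx* was 0.19 with total counts only, 0.06 under voom, 0.12 (edgeR) and 0.13 (DESeq2) without Ctrl shRNA replicate 2, and 0.02 without knockdown replicate 1 or 3 (range -0.10 to 0.12 over the 6 libraries left out in turn). With total counts only, the median of all genes moved to 0.16 and *Txnip* to -0.99. The low counts of *Mlxipl* limit what could be detected, and limma on FPKM and the filter of 10 counts in every library did not test it.

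Deviations from the group means correlated at -0.15, -0.09 and 0.04 for replicates 1, 2 and 3. Only control replicate 3 correlated best with the knockdown library of its own number. Deviations within a group of 3 sum to 0, and Ctrl shRNA replicate 2 stood far from the other controls. The correlations can therefore neither show nor exclude that libraries were paired by replicate number. With the number as a block, 0 of the 9 genes and 0 pathway list genes were called in either direction.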
